A study of Mus musculus with 6 samples.

Results

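The cytochrome P450 genes of the cystic mouse kidney were examined by their RNA levels. The members are the genes whose symbol reads Cyp, a family number, subfamily letters and a gene number, without *Cyp24a1* and *Cyp27b1*, the vitamin D enzymes. By this rule 90 of the 23276 gene symbols in the deposited table were members. They fall into family 2 with 49 genes, family 3 with 7, family 4 with 15 and the other families with 19. The kidneys came from 2 groups of 3 mice, both at postnatal day 22 in the sample labels. *Pkd1* F/RC SKO mice carry KspCre and *Pkd1* F/RC, and *Pkd1* F/RC DKO mice carry KspCre, *Pkd1* F/RC and miR17~92 F/F. Both groups therefore share KspCre, a Cre recombinase driven in renal tubules, a floxed *Pkd1* allele that it inactivates there, and the germline hypomorphic RC allele of *Pkd1*, while the floxed miR-17~92 cluster is particular to DKO mice. All 6 labelled kidneys carry these *Pkd1* alleles, and recombination is limited to the tubule cells in which Cre is active.

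Cytochrome P450 enzymes are haem proteins that insert 1 oxygen atom into a substrate, with electrons passed on by a reductase or, in mitochondria, by ferredoxin. Families 2 and 3 hold many enzymes of drug and foreign compound metabolism, and family 4 holds fatty acid hydroxylases. The other families include enzymes of steroid, bile acid, retinoid and sterol metabolism. Counted with them here is family 1, with the foreign compound genes *Cyp1a1*, *Cyp1a2* and *Cyp1b1*. The kidney is known for P450 enzymes that act on arachidonic acid. Some Cyp2c and Cyp2j enzymes turn it into epoxides, and some Cyp4a and Cyp4f enzymes into its omega-hydroxylated product. These lipids act on vessel tone and salt transport.

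The level of a gene is the authors' mean, in CPM, for the transcript row with the highest mean. CPM are counts scaled to a total that appears to run over all transcript rows. A read counted in several rows enters that total each time, so CPM here is not a share of reads. The mean is taken to cover the libraries of both genotypes, since the table is that of their comparison. Which libraries entered it could not be checked from the values. The means carry no SD or n. SKO and DKO kidneys are therefore not compared, the depth of each kidney's library is unknown here, and no order of levels below has an error attached. Because whole kidneys were sequenced, fewer cells of a type and less RNA per cell cannot be told apart. *Pkd1* stood at 31.8 CPM and *Mir17hg*, the host transcript of the floxed miRNA cluster, at 4.21 CPM. A pooled mean cannot check either deletion. Kidney markers were present: all 8 proximal tubule markers reached 1 CPM, with the phosphate transporter *Slc34a1* at 1030 CPM, as did all 5 markers of later segments, with uromodulin (*Umod*) at 1022 CPM. The lowest of these were *Slc22a7* at 5.40 CPM and *Fxyd4* at 18.4 CPM. Markers of other organs overlapped with that range. All 6 hepatocyte markers reached 1 CPM, from *Apoa2* at 1.34 to *Ttr* at 18.2 CPM, 1 of 6 adrenal cortex markers did (*Akr1b7*, 2.40 CPM), and both fat markers did (*Adipoq* 5.82 and *Plin1* 2.14 CPM). The part of other tissue in the P450 levels was not tested.

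Every P450 binds its haem iron through 1 cysteine, and the coding sequence around it is shown to let close members be compared base by base. The 10 codons of the P450 haem-iron ligand signature were found in 83 of the 89 members with a matched transcript. They were not found in *Cyp20a1*, *Cyp2s1*, *Cyp2t4*, *Cyp39a1*, *Cyp7b1* and *Cyp8b1*. The sets shown are the Cyp2j genes with at least 1 CPM, which hold distinct versions, the 4 Cyp4a members, of which 3 share 1 version, and the Cyp2d genes with at least 1 CPM, which share 1 version with each other and with *Cyp2d9*. Sequences are from GENCODE M21 transcripts (mouse build GRCm38), 5′ to 3′ on the coding strand, with the cysteine codon in capitals. Each stretch lies in coding exons, and its genome interval includes an intron.
Cyp2j5 (chr4:96629627-96630720, minus strand, exons 8 and 9): ttctcaatgggaaaaagagctTGTcttgga
Cyp2j9 (chr4:96568883-96571944, minus strand, exons 8 and 9): ttctcaatgggaaaacgtgctTGTcttgga
Cyp2j6 (chr4:96518186-96523712, minus strand, exons 8 and 9): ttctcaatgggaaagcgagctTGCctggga
Cyp2j11 (chr4:96294974-96297620, minus strand, exons 8 and 9): ttctcaatgggaaagagagctTGCcctggg
Cyp4a14 (chr4:115487299-115489805, minus strand, exons 11 and 12): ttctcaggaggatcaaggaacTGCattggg
Cyp4a10 (chr4:115529502-115532543, plus strand, exons 11 and 12): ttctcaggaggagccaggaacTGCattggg
Cyp4a31 (chr4:115574950-115577948, plus strand, exons 11 and 12): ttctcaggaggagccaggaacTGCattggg
Cyp4a32 (chr4:115614880-115621446, plus strand, exons 11 and 12): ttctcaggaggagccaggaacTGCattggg
Cyp2d26 (chr15:82790336-82790465, minus strand, exons 8 and 9): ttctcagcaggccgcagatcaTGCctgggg
Cyp2d22 (chr15:82371706-82371831, minus strand, exons 9 and 10): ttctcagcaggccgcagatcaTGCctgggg

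*Cyp2j5* differed from *Cyp2j9* at 2 of these 30 bases and from *Cyp2j6* and *Cyp2j11* at 4 each. *Cyp4a10*, *Cyp4a31* and *Cyp4a32* were identical over the stretch, and *Cyp4a14* differed from them at 2 bases. *Cyp2d26* and *Cyp2d22* were identical. Among the 83 genes there were 70 distinct stretches, and 22 genes shared theirs with another member. The stretch crossed an exon junction in 61 genes and lay within 1 exon in 22.

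Of the 90 P450 genes, 26 (28.9%) had a mean of at least 1 CPM, against 13001 (55.9%) of all gene symbols. A further 20 lay between 0.1 and 1 CPM, and 44 were under 0.1 CPM. The lowest value in the table was 0.0263 CPM, which 4617 rows share, and 4 members stood at it: *Cyp11b2*, *Cyp2b13*, *Cyp2c66* and *Cyp2t4*. With no spread given, values close to the lowest one cannot be told from it. The median over all members was 0.109 CPM, against 2.36 CPM over all gene symbols, and the median of the 26 was 8.996 CPM. Just inside the threshold were *Cyp2a5* at 1.11 and *Cyp2u1* at 1.18 CPM, and just outside it *Cyp2d12* at 0.927, *Cyp3a13* at 0.832 and *Cyp1a1* at 0.819 CPM. P450 RNA in these kidneys was thus held by few genes. The levels of the 90 members added up to 1129 CPM, of which *Cyp2j5* alone held 38.1%, the 5 highest genes 77.0% and the 10 highest 91.8%. These shares are of CPM, in which a longer transcript counts for more; per kb of transcript they were 36.8%, 78.1% and 91.7%.

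**Figure D1:**
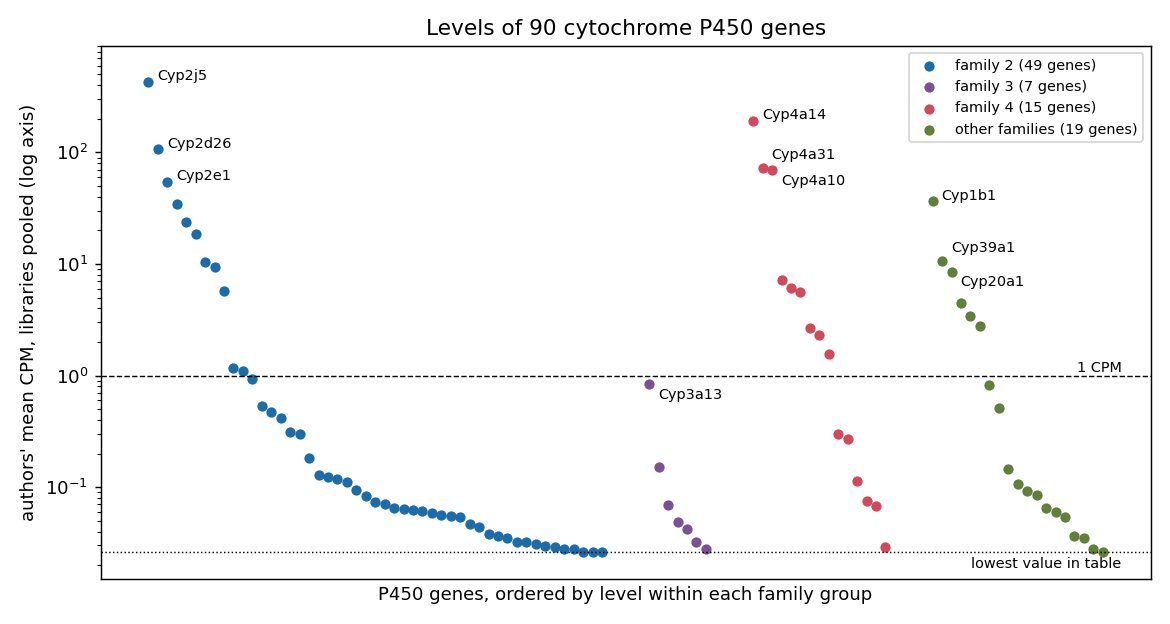
Mean level of each of the 90 P450 genes in CPM (vertical log axis), ordered from high to low within family 2, family 3, family 4 and the other families. CPM is not scaled by transcript length; each point is 1 gene and has no error. The dashed line is 1 CPM and the dotted line the lowest value in the table, 0.0263 CPM. Family 3 has no point above 1 CPM, and *Cyp2j5* stands highest at 430.5 CPM.

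Family 2 had 11 of 49 genes at 1 CPM or above and held 62.1% of the summed P450 CPM. Its median gene stood at 0.0731 CPM, so a few of its members carried the total. Family 4 had 9 of 15 genes at 1 CPM or above, with a median of 2.29 CPM, and held 31.7% of the sum. Family 3 had 0 of 7 genes at 1 CPM; its member with the most CPM, also per kb, was *Cyp3a13* at 0.832 CPM and the family held 0.107% of the sum. The other families had 6 of 19 genes at 1 CPM or above and held 6.04%. Of their summed 68.2 CPM, *Cyp1b1* of family 1 had 36.4 CPM. Scaled by transcript length (CPM per kb), the shares were 65.1% for family 2, 30.7% for family 4, 4.11% for the other families and 0.0958% for family 3.

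To set the levels of genes beside each other, they were divided by the length of the gene's RefSeq transcript, using the CPM of that transcript's row. Per kb, *Cyp2j5* led with 176.6 CPM per kb and ranked 101 among the 20073 genes that had such a value. It was 2.33 times the level of *Cyp4a14*, at 75.8 CPM per kb and rank 308. *Cyp2d26* followed with 60.5 CPM per kb, *Cyp4a10* with 32.7, *Cyp2e1* with 29.6, *Cyp4a31* with 27.2 and *Cyp2j11* with 18.04. Below these lay a gap to *Cyp1b1* at 7.09 CPM per kb, *Cyp2j6* at 6.67, *Cyp2d22* at 6.498 and *Cyp2c44* at 4.93. *Cyp1b1*, whose transcript of 5128 nt compares with a median of 2225 nt over the 26 genes, had more CPM than *Cyp2j11* (36.4 against 34.6) but a lower level per kb. *Cyp4a31* had slightly more CPM than *Cyp4a10* (72.2 against 69.0), and the order was reversed per kb. With no spread over kidneys, neighbours in this order cannot be said to differ.

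**Figure D2:**
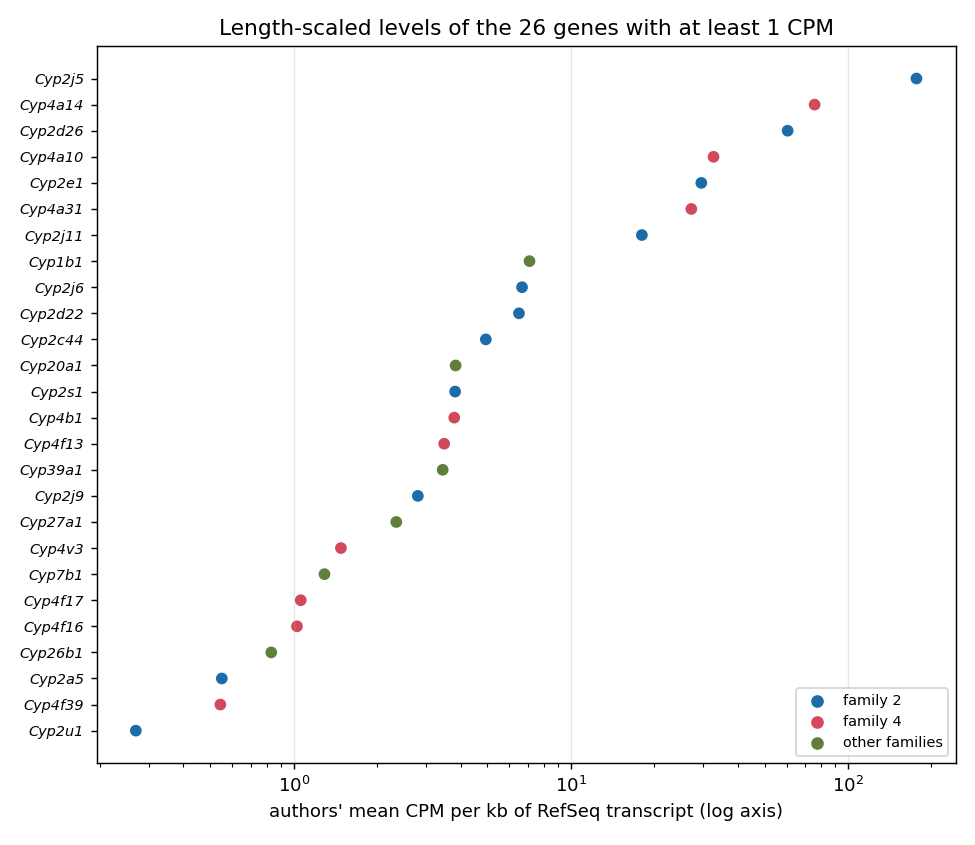
Mean CPM per kb of RefSeq transcript (horizontal log axis) for the 26 P450 genes with at least 1 CPM, 1 point per gene without error, coloured by family. The 7 highest genes, from *Cyp2j11* at 18.04 to *Cyp2j5* at 176.6 CPM per kb, lie apart from the other 19, which are at 7.09 CPM per kb or less.

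Several of the highest P450 levels belonged to genes listed as linked to arachidonic acid. Of 12 such genes, 8 had at least 1 CPM, against 28.9% of members and 55.9% of all gene symbols. The 12 added up to 771.0 CPM. The list, drawn up with earlier results known, takes of the 15 Cyp2c genes only *Cyp2c44*, the one at 1 CPM or above. It also leaves out *Cyp2j8* (0.0949 CPM) and *Cyp2j12* (0.0637 CPM), so count and sum depend on it. RNA levels do not show which listed enzymes act on arachidonic acid. Among the epoxygenases, *Cyp2j5*, an abundant enzyme of the mouse kidney, stood at 430.5 CPM, *Cyp2j11* at 34.6, *Cyp2j6* at 24.03 and *Cyp2j9* at 5.71 CPM, while *Cyp2j13* stood at 0.475 CPM. Per kb, *Cyp2j5* was 9.79 times *Cyp2j11*, 26.5 times *Cyp2j6* and 62.9 times *Cyp2j9*, and it held 86.4% of the Cyp2j level per kb. *Cyp2c44*, a renal epoxygenase that GENCODE lists as *Cyp2c23*, stood at 9.45 CPM. In the Cyp4a subfamily, *Cyp4a14* stood at 190.8 CPM and *Cyp4a10* at 69.0 CPM, both known targets of the fatty acid receptor PPARα. Their neighbours *Cyp4a12a* and *Cyp4a12b*, which the name rule leaves out because their symbols end in a letter, stood at 0.0651 and 0.272 CPM. In the Cyp4f subfamily *Cyp4f13* stood at 6.12 CPM and *Cyp4f14* at 0.0679 CPM.

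The remaining genes of families 2 and 4 at 1 CPM or above covered a wide range. *Cyp2d26* stood at 106.6 CPM and *Cyp2d22* at 18.6 CPM. *Cyp2e1*, the ethanol-oxidising P450, stood at 54.2 CPM, and *Cyp2s1* at 10.5 CPM. In family 4, *Cyp4a31* stood at 72.2 CPM, *Cyp4b1* at 7.18, *Cyp4v3*, a fatty acid hydroxylase, at 5.64, *Cyp4f17* at 2.68, *Cyp4f16* at 2.29 and *Cyp4f39* at 1.58 CPM. The *Cyp4f17* value was taken from an assembled transcript and was 1.49 times that of its RefSeq row, the highest such ratio among the 26 genes.

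Most genes listed as inducible by foreign compounds were under 1 CPM, as were 64 of the 90 members. The listed steroid genes were all under 1 CPM. Of 15 such inducible genes, 3 had at least 1 CPM, against 28.9% of members and 55.9% of all gene symbols. They were *Cyp2e1*, *Cyp1b1* at 36.4 CPM and *Cyp2a5*, a coumarin hydroxylase, at 1.11 CPM. The list does not stand for all foreign compound enzymes: it holds no Cyp2d gene, and *Cyp2d26* stood at 106.6 and *Cyp2d22* at 18.6 CPM. *Cyp1a1* and *Cyp1a2*, the classical targets of the dioxin receptor, stood at 0.819 and 0.0852 CPM. *Cyp2b10* and *Cyp3a11*, the usual readouts of the receptors CAR and PXR, stood at 0.301 and 0.152 CPM. None of the 6 steroidogenic genes reached 1 CPM. *Cyp11b2*, aldosterone synthase, stood at the lowest value of the table, *Cyp19a1* (aromatase) at 0.0279, *Cyp11b1* at 0.0352, *Cyp11a1* (side-chain cleavage) at 0.0598, *Cyp21a1* at 0.0654 and *Cyp17a1* at 0.145 CPM. Per kb they ran from *Cyp11b1* at 0.0111 to *Cyp17a1* at 0.0798 CPM per kb. Neither order is a ranking, because several of these values lie at or close to the lowest value. Such values cannot be told from it, and dividing them by length mainly reflects transcript length.

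In the pathways of sterols and vitamins, some members reached 1 CPM and others did not. Of 6 bile acid and cholesterol genes, 3 had at least 1 CPM, against 28.9% of members and 55.9% of all gene symbols. They were the oxysterol hydroxylases *Cyp39a1* at 10.5 and *Cyp7b1* at 2.80 CPM, and the mitochondrial sterol 27-hydroxylase *Cyp27a1* at 4.44 CPM. *Cyp7a1*, the rate-limiting enzyme of bile acid synthesis in liver, stood at 0.0921 CPM and *Cyp8b1* at 0.0542 CPM. *Cyp26b1*, which breaks down retinoic acid, stood at 3.45 CPM, against 0.107 for *Cyp26a1* and 0.0364 for *Cyp26c1*. For vitamin D 25-hydroxylation, *Cyp2r1* stood at 0.414 CPM and *Cyp27a1* at the value above. *Cyp20a1*, a P450 of unassigned substrate, stood at 8.54 CPM.

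P450 genes lie in families of neighbours, and the members at 1 CPM or above were unevenly placed among them. With a gap of at most 200 kb, 67 of the 89 placed members fell into 12 genomic groups, of which 16 genes reached 1 CPM; of the 22 outside such groups, 10 did. The Cyp2j group (chr4:96027534-96664154) had 4 of 7 members at 1 CPM or above and added up to 495.4 CPM. The group with Cyp4a, *Cyp4b1* and *Cyp4x1* on the same chromosome (chr4:115106323-115647723) had 4 of 6 and added up to 339.3 CPM. The Cyp2d group (chr15:82370527-82794294) had 2 of 8, the genes at its outer ends, *Cyp2d22* and *Cyp2d26*. The pseudogene *Cyp2d37-ps*, which the name rule leaves out, lies between them and stood at 3.82 CPM. By contrast, the 14 genes of the Cyp2c group (chr19:39007019-40187333) added up to 0.900 CPM, with *Cyp2c70* holding the most CPM, 0.182, and the 6 genes of the Cyp3a group (chr5:145345279-146113287) to 0.372 CPM. *Cyp2c44*, the Cyp2c gene above 1 CPM, lies outside the Cyp2c group on the same chromosome.

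**Figure D3:**
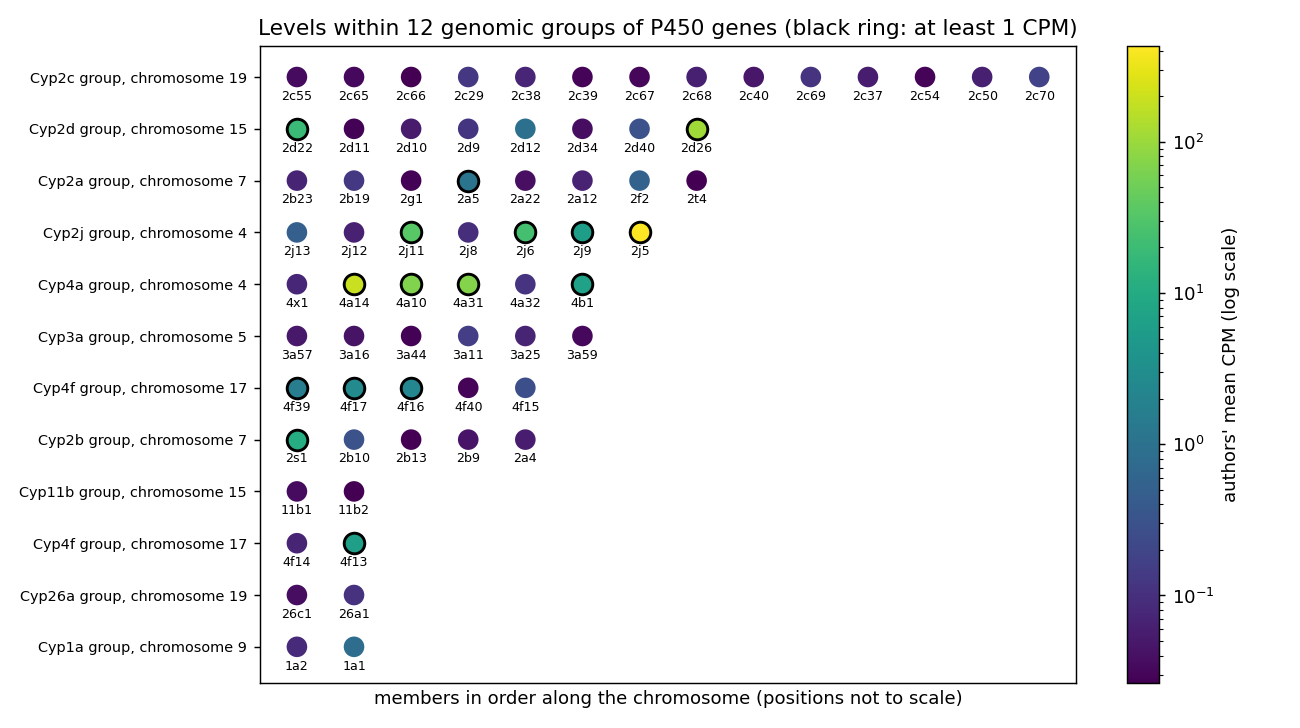
Mean CPM (colour, log scale) of the P450 genes in 12 genomic groups, 1 row per group, with genes in order along the chromosome and not to scale. Each circle is 1 gene and a black ring marks at least 1 CPM: the Cyp2c and Cyp3a rows have no ring, and the Cyp2j and Cyp4a rows have 4 each.

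Near-identical sequence bears on these levels, because reads of 51 bases that map to several genes were discarded by the authors' mapping quality filter. For each member the share of 51-base windows of its transcript that another gene's transcript also holds was counted. Either strand counted, and genome position was not compared. A gene annotated over the same stretch of genome therefore counts as sharing, although reads there need not map to several places. The share is thus not a share of discarded reads. Among the 26 genes with at least 1 CPM the median share was 1.80%, and 7 genes exceeded 10%. *Cyp2u1*, among the 7, shared 14.6% of its windows, 11.5% with *4930534D22Rik*, whose symbol is not that of a P450 gene. Among the 63 genes under 1 CPM with a transcript the median was 9.27%, and 29 exceeded 10%. The part of lost reads in the low levels was not tested.

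For single members the shares were as follows. *Cyp2j5* and *Cyp4a14* shared 0.131% and 0.204% of their windows, and *Cyp1b1* and *Cyp2c44* shared 0. *Cyp4a10* shared 29.9% of its windows, 24.5% with *Cyp4a32*. *Cyp4a31* shared 21.4%, and *Cyp4a32*, which stood at 0.113 CPM, shared 45.8%. *Cyp2a5* shared 40.0%, 30.3% with *Cyp2a4*, which stood at 0.0549 CPM. *Cyp2c40*, at 0.0466 CPM, shared 71.5%. When the level was divided by the length in windows unique to the gene, *Cyp4a10* rose from 32.7 to 47.8 CPM per kb, and *Cyp4a14* then stood at 1.62 times *Cyp4a10* instead of 2.32 times. Other genes' transcripts thus held more of the windows of *Cyp4a10*, *Cyp4a31* and *Cyp2a5* than of *Cyp2j5* and *Cyp4a14*. Levels of genes with more sharing are uncertain in this respect, by an amount that was not measured.

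**Figure D4:**
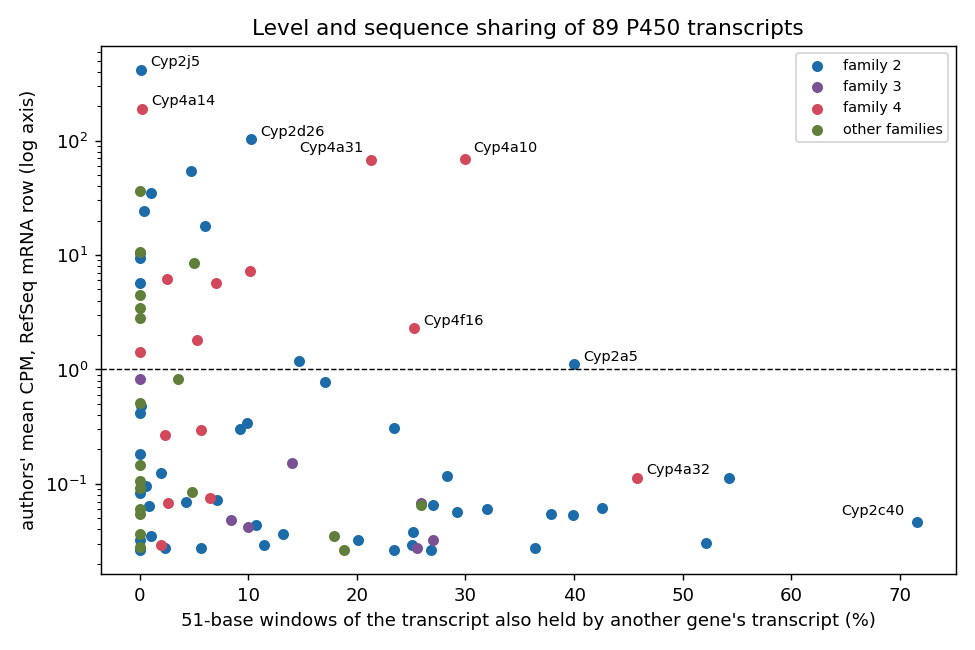
Share of each transcript's 51-base windows that another gene's transcript also holds (horizontal axis, %) against mean CPM of the RefSeq row (vertical log axis) for 89 P450 genes, 1 point per gene, coloured by family. *Cyp2j5* and *Cyp4a14* lie near 0%, and *Cyp4a10* at 29.9% and *Cyp4a31* at 21.4%.

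Partners of the P450 enzymes were measured in the same table. The counts below stand against 55.9% of all gene symbols with at least 1 CPM. Of 10 electron donor genes listed, 9 had a value, and all 9 reached 1 CPM (*Cyb5a*, cytochrome b5 type A, was not analysed here), including the microsomal reductase *Por* at 63.3 CPM, cytochrome b5 type B (*Cyb5b*) at 173.8 CPM, and the mitochondrial pair *Fdx1* at 12.9 and *Fdxr* at 2.42 CPM. All 9 genes of haem synthesis did, from *Uros* at 5.26 to *Alas1*, the housekeeping first enzyme, at 45.1 CPM. Of 16 receptors and factors known to act on P450 genes, 14 reached 1 CPM, among them *Hnf4a* at 192.1, *Ppara* at 45.6 and the PXR gene *Nr1i2* at 3.70 CPM, while the CAR gene *Nr1i3* stood at 0.483 and *Ahrr* at 0.825 CPM. Of 11 eicosanoid partners, 9 reached 1 CPM, including the soluble epoxide hydrolase *Ephx2*, which hydrolyses the epoxides, at 28.1 CPM and the phospholipase *Pla2g4a*, which releases arachidonic acid, at 21.1 CPM.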

How the data were processed

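Total RNA of 6 whole kidneys was sequenced as stranded, 51-base single-end reads. Per the labels and the study's methods, reads were trimmed and aligned to mm10 with TopHat2 2.0.12, those with a mapping quality under 10 were discarded, and transcripts were counted; the submitters' processing notes also name bcl2fastq 1.8.4, Cufflinks, featureCounts, Subread 1.4.6 and edgeR 3.2.4. The level used is an average log2 CPM over libraries, called the mean here, and how it was formed cannot be checked from the values. The authors deposited 1 table of 54721 transcript rows with 1 such average each, as the table's comparison implies over the libraries compared. Its 4 other numeric columns hold the authors' comparison of DKO with SKO kidneys (fold change, test statistic, p-value and false discovery rate) and were not used, so no comparison of genotypes was made and no test was run.

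Log2 CPM was converted to CPM. Each gene is represented by its row with the highest mean. Reads can be counted in several rows of a gene. The CPM of all rows adds up to 1007270, so the scaling total appears to run over all rows, with such reads entering it several times. Of the 90 members, 13 are represented by an assembled row. Lengths, positions and sequences are from GENCODE M21 (GRCm38, the build also called mm10) through the matched RefSeq mRNA; *Cyp2d13* had none. The haem-iron ligand signature of PROSITE was searched in the translated coding sequence. Shared windows were tested on simulated data first. Python 3.11.15 with pandas 2.3.3 was used. Alternatives changed the threshold, the row, the lowest value, the members and the length scale. Members and lists were chosen with earlier results of these data known. Named are the 8 highest members of families 2 and 4 each, the 6 highest of the others and all arachidonate and steroidogenic genes; the remaining names were chosen after their values were seen. A rule on protein identity was replaced by shared windows.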

Additional observations from a re-analysis of the deposited data

How the results depend on the processing

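The threshold set the count of P450 genes: 46 of 90 had at least 0.1 CPM and 12 at least 10 CPM, against 26 at 1 CPM. At 0.1 CPM this was 51.1% of members against 68.5% of all gene symbols. At 10 CPM it was 13.3% against 32.2%, and at 1 CPM 28.9% against 55.9%. The count was 26 with RefSeq rows, with the lowest value subtracted and with letter-ended symbols added, and 29 with all rows of a gene added up or with *Cyp24a1*, *Cyp27b1* and *Cyp51* added. The median of the genes at 1 CPM or above, 8.996 CPM, was 8.99 with RefSeq rows, 13.9 with rows added up and 8.97 with the lowest value subtracted. For the next share, the 5 highest genes were picked anew in each setting. The share of the 5 highest genes, 77.0%, was 76.6% with RefSeq rows, 88.4% with rows added up, 77.1% with the lowest value subtracted, 73.5% with the 3 vitamin D and sterol genes added, 76.9% with letter-ended symbols, 78.1% per kb and 78.2% per kb of unique windows. In the same order family 2 held 61.8%, 73.6%, 62.1%, 59.3%, 62.1%, 65.1% and 62.9%, against 62.1%, and family 4 held 31.9%, 23.8%, 31.8%, 30.3%, 31.8%, 30.7% and 33.1%, against 31.7%. Adding up rows can count a read several times, and it moved 16 of 27 named levels by over 1.5 times (*Cyp2j5* to 2246 CPM); the other row choice and the subtraction moved 0 of 27. The last scaling and the letter-ended symbols were chosen after seeing the data. Members above the lowest value numbered 86 of 90, and 85 with RefSeq rows. Of all 23276 gene symbols, 19406 (83.4%) were above it. No paired analysis was possible because the values are means over kidneys and no test was run. Leaving out a kidney could not be done for the same reason. Counting error and the spread between kidneys have no value here at any level.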
